A study of Homo sapiens with 6 samples.

Results

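The AP-1 and immediate early transcription factors were followed in tumours of HT-29, an established human colorectal cancer cell line, grown as xenografts. The 10 genes were chosen by symbol: FOS, FOSB, FOSL1, FOSL2, JUN, JUNB, JUND, EGR1, ATF3 and IER2. All 10 were found among 29236 annotated symbols, with 37 of 116485 annotated transcripts, and all 10 reached 1 FPKM in 3 or more samples, the condition for being tested, which 13448 genes met in all. FPKM is fragments per kilobase of transcript per 1000000 reads, so that levels of different genes can be set side by side. The samples were 3 untreated control tumours and 3 tumours given extracorporeal shock waves of 60 mJ, pulses of pressure applied from outside the body, both groups at day 15. All 6 samples were HT-29 with a genotype labelled WT, and all carry 1 batch value. The labels name neither the host animal nor separate animals for the samples of a group, so each p-value measures only the spread between these samples, which may be technical. In such bulk RNA, fewer cells of a type and less RNA per cell cannot be told apart.

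AP-1 is a dimer of proteins that bind DNA through a basic region and a leucine zipper. JUN proteins pair with each other or with FOS proteins, while FOS proteins need a JUN partner, and the pair formed sets the DNA site and the strength of activation. Immediate early genes are transcribed within minutes of growth factors, stretch or injury without new protein synthesis, and the transcripts of FOS, EGR1 and IER2 are short-lived. In intestinal epithelium and colorectal cancer, AP-1 is best known as an end point of ERK and JNK kinase signalling.

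The start regions of 4 of the genes are shown for the DNA elements through which such genes are known to be switched on. EGR1 varied most between libraries, FOSL2 and FOSB were the genes whose groups did not overlap, and JUND had the largest positive difference. Each sequence is the RefSeq window (build GRCh38.p14) from 250 bases before to 50 bases after the annotated start, 5′ to 3′ on the strand of the gene, and capitals mark a match to a searched motif. The windows are chr5:138465229-138465528 (plus strand) for EGR1, chr2:28392608-28392907 (plus strand) for FOSL2, chr19:45467746-45468045 (plus strand) for FOSB and chr19:18281573-18281872 (minus strand) for JUND.
EGR1: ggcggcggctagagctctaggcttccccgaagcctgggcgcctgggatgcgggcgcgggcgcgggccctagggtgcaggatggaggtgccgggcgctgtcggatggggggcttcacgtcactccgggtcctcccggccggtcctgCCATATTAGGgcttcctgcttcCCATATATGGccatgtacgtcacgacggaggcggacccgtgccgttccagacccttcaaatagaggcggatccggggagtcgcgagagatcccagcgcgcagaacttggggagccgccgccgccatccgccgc
FOSL2: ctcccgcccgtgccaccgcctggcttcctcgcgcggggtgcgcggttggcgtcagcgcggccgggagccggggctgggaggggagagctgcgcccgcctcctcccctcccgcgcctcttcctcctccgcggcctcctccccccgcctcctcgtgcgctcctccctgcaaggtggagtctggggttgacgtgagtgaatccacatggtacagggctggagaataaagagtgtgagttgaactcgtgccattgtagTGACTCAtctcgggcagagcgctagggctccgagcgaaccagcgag
FOSB: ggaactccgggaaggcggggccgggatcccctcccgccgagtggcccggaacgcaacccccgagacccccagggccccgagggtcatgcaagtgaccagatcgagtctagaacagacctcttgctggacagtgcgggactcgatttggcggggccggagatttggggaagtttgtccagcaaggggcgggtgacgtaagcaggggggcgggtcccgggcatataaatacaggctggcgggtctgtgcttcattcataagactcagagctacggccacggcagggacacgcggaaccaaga
JUND: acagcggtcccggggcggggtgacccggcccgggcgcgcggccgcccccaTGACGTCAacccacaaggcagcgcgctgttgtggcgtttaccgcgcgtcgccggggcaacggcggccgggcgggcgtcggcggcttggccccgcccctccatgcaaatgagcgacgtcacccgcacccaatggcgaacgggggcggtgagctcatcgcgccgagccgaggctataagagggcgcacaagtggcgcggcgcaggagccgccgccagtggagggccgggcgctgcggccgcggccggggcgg

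The search covered both strands for the AP-1 site TGACTCA, the cyclic AMP response element TGACGTCA, its variant TGACATCA that JUN is known to carry, the EGR1 site GCGTGGGCG and the CArG box, which binds serum response factor. The EGR1 window held 2 CArG boxes, at -105 to -96 and -83 to -74 from the start. The FOSL2 window held 1 AP-1 site, at 5 to 11 after the start, and the JUND window held 1 cyclic AMP response element, at -200 to -193. The FOSB window held no match to these letters, and no matches overlapped. Of 35116 RefSeq windows of 300 bases, 4.95% held the AP-1 site, 1.85% the cyclic AMP response element, 2.61% the variant, 0.795% the EGR1 site and 1.29% a CArG box. A match describes letters and is not a measured binding site.

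Read totals recovered from the values were 48300000 to 58540000 per library. Several epithelial genes were abundant in each library, with EPCAM at 361 to 599.9 FPKM, KRT20 at 569 to 898 and LGALS4 at 769 to 987. Of the 12 colonic epithelial genes listed, others were much lower, with CDX2 at 1.89 to 6.89, CDX1 at 11.5 to 22.5 and MUC2 at 9.97 to 22.6 FPKM. Of 32 human genes listed for fibroblasts, endothelium, macrophages and neutrophils, 23 were in the table, and many defining ones were near 0, with COL3A1 at most 0.013, CDH5 at most 0.121, VWF at most 0.0477 and PTPRC at most 0.102 FPKM. COL1A1, LUM, FAP, ENG, CD68, CD14 and ITGAM reached 1 FPKM. The 8 fibroblast genes summed to 26.6, 11.2 and 12.6 FPKM in control tumours against 4.83, 16.0 and 6.92 in the shock wave tumours, the 7 endothelial genes to 8.35 to 14.0 over all libraries and the 8 macrophage and neutrophil genes to 11.2 to 18.9. No gene of these lists in the table was at 0 in every library, and the part of such cells in the values below was not tested. In shock wave replicate 3 the log2 level fell by 0.24 per doubling of transcript length relative to the control mean, against -0.11 and -0.03 in shock wave replicates 1 and 2. Values with this trend removed are given beside the 10 genes. Log2 changes below are shock wave minus control on the scale log2(FPKM + 1).

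None of the 10 genes passed an adjusted p of 0.05 (limma, Benjamini-Hochberg over 13448 genes), and neither did any other gene (0.0% called). FOSB and FOSL2, members of the FOS family, were lower in all 3 shock wave tumours than in all 3 controls. FOSL1 was low in shock wave replicate 3 alone, and EGR1 was lowest there, with shock wave replicate 2 also below the controls. JUNB, JUN and IER2 lay within a narrow band in all libraries. Of the 10 genes, 8 had a log2 change below 0 and 2 above, with a median of -0.19, beside 51.6% below 0 and a median of -0.01 over all genes tested. The groups did not overlap, lower in shock wave tumours, for 2 of the 10, beside 8.69% of all genes, and higher for 0 of the 10, beside 7.75%. At an unadjusted limma p under 0.05 there was 1 of the 10, FOSB, which was lower, beside 3.76% of all genes lower and 6.93% in either direction. Limma voom on the recovered reads also gave 0 of the 10 past the adjusted threshold. Without shock wave replicate 3, still 8 were below 0 and 2 lower without overlap, beside 11.0% of all genes. There were 4 lower without overlap when control replicate 2 or shock wave replicate 1 was left out, beside 13.9 and 15.6% of all genes. These counts describe genes chosen with earlier results of these data known.

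**Figure D1:**
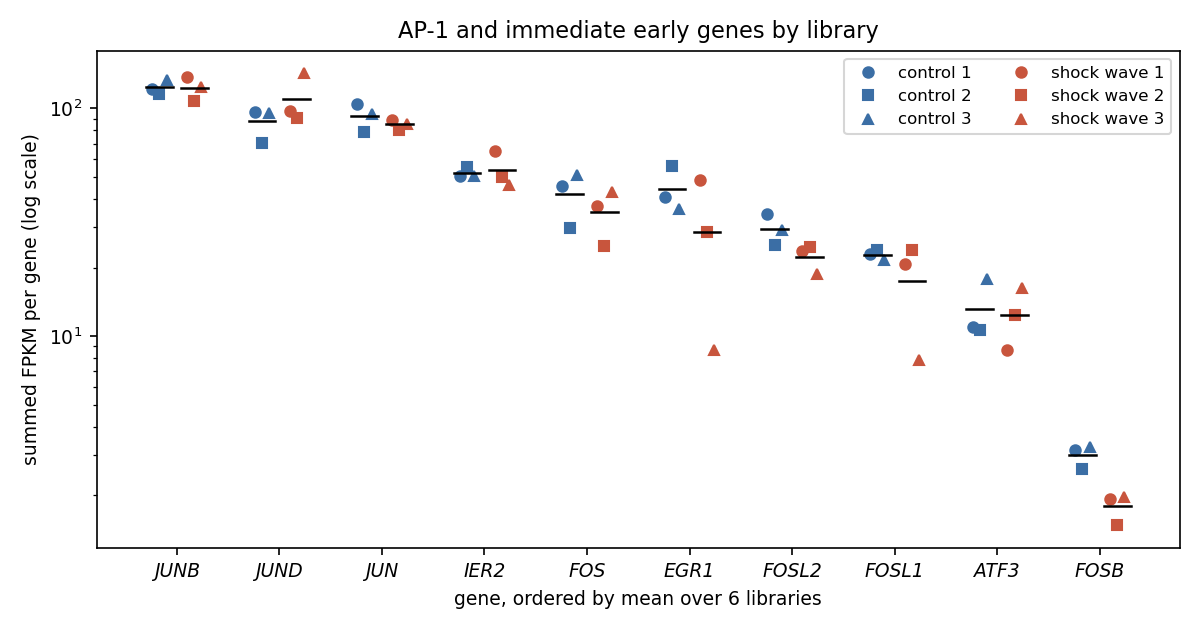
Summed FPKM of each gene (log axis) in each of the 6 libraries, with genes ordered by their mean. Points are single libraries, marked by replicate, and black lines are group means. FOSB and FOSL2 have no control point at or below a shock wave point, and shock wave replicate 3 is far below the other libraries for EGR1 and FOSL1.

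The FOS family is described first. FOS is the founding member and is often taken as a marker of recent stimulation. Its transcripts span positions 75278774 to 75282230 of chromosome 14 on hg38, the build of all gene positions below (plus strand). FOS was at 45.8, 29.7 and 51.2 FPKM in the controls and at 37.1, 24.8 and 43.1 in the shock wave tumours. Replicate 2 was the lowest library of either group and the groups overlapped. The log2 change was -0.26 (95% interval -0.91 to 0.38, SE 0.27, limma adjusted p = 0.727), and -0.34 with the length trend removed. It ran from -0.04 without shock wave replicate 2 to -0.49 without control replicate 2, and was -0.43 without shock wave replicate 3 and -0.11 without control replicate 3.

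FOSB, which also gives a shortened splice form known for its stability in neurons, lies on chromosome 19 at 45467995 to 45475179 (plus strand). FOSB was at 3.16, 2.60 and 3.25 FPKM in the controls and at 1.93, 1.48 and 1.97 in the shock wave tumours. The lowest control thus lay above the highest shock wave tumour. The means were 3.00 ± 0.351 (SD, n = 3) and 1.79 ± 0.274 (SD, n = 3), a log2 change of -0.52 (95% interval -0.94 to -0.10) on a scale that understates the change of so low a gene. The difference was past an unadjusted limma p of 0.05 (0.0214) but not past the threshold over all genes (adjusted p = 0.648). FOSB was the lowest of the 10 genes in level and rested on 385 to 494 reads per control library and 252 to 368 per shock wave library. The unadjusted p was 0.0707 without control replicate 1, 0.0624 without shock wave replicate 2 and 0.0741 without control replicate 3. Its log2 change was -0.57 without shock wave replicate 3 and -0.45 with the length trend removed.

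The low level of FOSB was spread over 8 transcripts, of which FOSB-210 alone reached 1 FPKM in any library. FOSB-210 (ENST00000591858) was at 0.472, 0 and 1.12 FPKM in controls and at 0.228, 0 and 0.430 in shock wave tumours, so it was listed at 0 in replicate 2 of both groups. The separation of the groups was in the sum over transcripts, and 0 FOSB transcripts were high enough to be tested alone.

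FOSL2 encodes FRA-2, a FOS protein without the strong activation domain of FOS, and lies on chromosome 2 at 28392448 to 28417312 (plus strand). FOSL2 was at 34.5, 25.0 and 29.2 FPKM in the controls and at 23.5, 24.6 and 18.6 in the shock wave tumours. The groups did not overlap, but control replicate 2 and shock wave replicate 2 were nearly level. The means were 29.6 ± 4.73 (SD, n = 3) and 22.3 ± 3.19 (SD, n = 3), a log2 change of -0.39 (95% interval -0.80 to 0.02, SE 0.17, limma adjusted p = 0.648). FOSL2 has the longest transcript of the group, with a mean of 6613 bases weighted by level. With the trend on transcript length removed its log2 change was -0.13 (limma adjusted p = 0.828), and without shock wave replicate 3 it was -0.27.

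The transcript FOSL2-201 (ENST00000264716) held 88.7 to 96.5% of the gene in each library. The minor transcript FOSL2-202 (ENST00000379619) was at 1.82, 2.84 and 1.83 FPKM in controls and at 1.22, 0.836 and 0.791 in shock wave tumours. These groups too did not overlap, beside 7.34% of 28517 transcripts that were lower without overlap. The log2 change of FOSL2-202 was -0.69 (95% interval -1.27 to -0.11, limma adjusted p = 0.733 over all transcripts tested), and -0.50 with the length trend removed.

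FOSL1 encodes FRA-1, which is known as a target of ERK signalling and of AP-1 itself in epithelial tumours, and lies on chromosome 11 at 65892049 to 65900573 (minus strand). FOSL1 was at 22.9, 23.8 and 21.5 FPKM in the controls and at 20.7, 23.9 and 7.84 in the shock wave tumours. Shock wave replicates 1 and 2 lay within 1 FPKM of the range of the controls, and replicate 3 was far below the other 5 libraries. The log2 change was -0.49 (95% interval -1.39 to 0.40, limma adjusted p = 0.672) and -0.03 without shock wave replicate 3. With the length trend removed it was -0.59.

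The reads of FOSL1 lay on different transcripts in different libraries. FOSL1-201 (ENST00000312562), the transcript with most reads, held 46.1, 60.9 and 86.4% of the gene in controls against 50.5, 78.5 and 80.6% in shock wave tumours. FOSL1-204 (ENST00000532401) was at 5.79, 2.34 and 0 FPKM in controls and at 4.26, 1.68 and 0 in shock wave tumours, so it was listed at 0 in replicate 3 of both groups. The share of FOSL1-201 did not separate the groups, with means of 64.5 ± 20.4 and 69.8 ± 16.8% (SD, n = 3 each). The exact permutation test, two-sided over 20 arrangements of which the smallest possible p is 0.1, gave p = 0.9.

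Within FOS, transcript FOS-201 (ENST00000303562) held 51.0 to 71.8% of the level. FOS-204 (ENST00000554617), of 796 bases, was at 17.1, 3.55 and 8.58 FPKM in controls and at 8.88, 5.19 and 5.26 in shock wave tumours. Its share of FOS was highest in control replicate 1, at 37.3%, and between 12.0 and 23.9% elsewhere. The share of FOS-201 gave an exact two-sided permutation p of 0.4 over 20 arrangements, and that of FOSL2-201 gave 0.5, again with 0.1 the smallest possible. These were the 3 genes with at least 2 transcripts at 1 FPKM in at least 3 libraries. Of the 37 transcripts, 16 could be tested singly and 0 passed the adjusted threshold (limma), beside 0.203% of all transcripts tested. At an unadjusted p under 0.05 there was 1 of the 16, FOSL2-202, beside 6.58%. Its unadjusted limma p rose from 0.0271 to 0.0801 with the length trend removed, to 0.0846 without control replicate 2, to 0.0695 without shock wave replicate 2 and to 0.0620 without shock wave replicate 3.

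**Figure D2:**
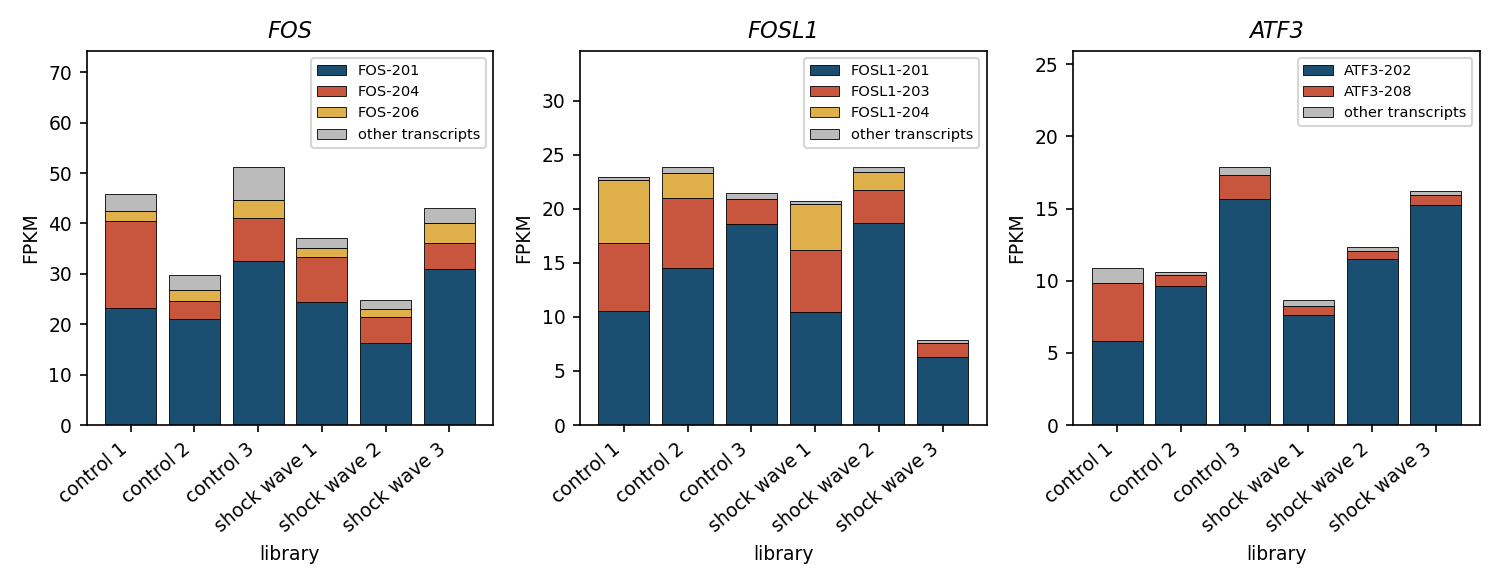
FPKM of the transcripts of FOS, FOSL1 and ATF3, stacked for each of the 6 libraries, with the remaining transcripts of each gene in grey. FOS-204 and ATF3-208 are high in control replicate 1, and FOSL1-204 is at 0 in replicate 3 of both groups.

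The JUN genes, the partners that FOS proteins need, were the most abundant of the 10 with means of 88.8 to 123 FPKM. Each of the 3 was listed with 1 transcript. JUNB, which in many cells counters the growth-promoting activity of JUN, lies on chromosome 19 at 12791496 to 12793315 (plus strand). JUNB was at 122, 115.5 and 133 FPKM in controls and at 137, 108 and 124 in shock wave tumours. It had the narrowest range of the 10 genes over the 6 libraries, 0.34 on the log2 scale, against a median range of 0.75 over all genes tested. Its log2 change was -0.01 (95% interval -0.33 to 0.31, limma adjusted p = 0.977), and its sign turned with upper-quartile scaling, to 0.04. With the length trend removed it was -0.07.

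JUN, the target of the JNK kinases, lies on chromosome 1 at 58780788 to 58784327 (minus strand). JUN was at 104.0, 78.9 and 94.8 FPKM in controls and at 88.9, 80.7 and 85.6 in shock wave tumours. The shock wave tumours all lay inside the range of the controls. The log2 change was -0.11 (95% interval -0.44 to 0.21, limma adjusted p = 0.767), and 0.0030 with the length trend removed. It ran from -0.03 without control replicate 1 to -0.22 without control replicate 2.

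JUND, the JUN gene known for steady expression in resting cells, lies on chromosome 19 at 18279760 to 18281622 (minus strand). JUND was at 96.9, 70.3 and 95.5 FPKM in controls and at 97.8, 90.9 and 143 in shock wave tumours. Shock wave replicate 3 was the highest library and control replicate 2 the lowest, and the other 4 lay between 90.9 and 97.8. The log2 change was 0.32 (95% interval -0.19 to 0.83, SE 0.21, limma adjusted p = 0.655) and 0.12 without shock wave replicate 3, 0.17 without control replicate 2 and 0.27 with the length trend removed. The log2 change of JUND was 0.20 with each library scaled to the same sum and 0.17 with quantile normalization. The library highest for JUND, shock wave replicate 3, was the lowest for EGR1 and FOSL1. Its summed FPKM was 571671, against 478228 to 512605 in the other libraries.

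The summed level of the FOS family was 106, 81.1 and 105 FPKM in controls against 83.3, 74.8 and 71.5 in shock wave tumours, and that of the JUN family 323, 265 and 324 against 324, 280 and 352. Both sums overlapped between the groups. The ratio of the JUN to the FOS family within a library did not. It was 3.03, 3.26 and 3.08 in controls against 3.89, 3.74 and 4.92 in shock wave tumours, with means of 3.13 ± 0.122 and 4.18 ± 0.645 (SD, n = 3 each). A ratio within a library does not depend on how libraries are scaled to each other. Its order over the shock wave tumours was that of their trends on transcript length (-0.11, -0.03 and -0.24 per doubling in replicates 1, 2 and 3). FOSL2 is the longest gene of both families, with a mean of 6613 bases weighted by level. FOS and FOSL1, at 1698 and 1502 bases, are shorter than each JUN gene, at 1820 to 3540 bases. The part of length in the ratio was not tested. In recovered reads the ratio was 2.27 to 2.38 in controls against 2.62 to 3.59 in shock wave tumours. Without shock wave replicate 3 the difference of the means in FPKM was 0.686, against 1.06 with it. The ratio was looked at after the values of its members were seen and has no test. Of all single genes tested, 16.4% had groups that did not overlap, lower or higher.

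**Figure D3:**
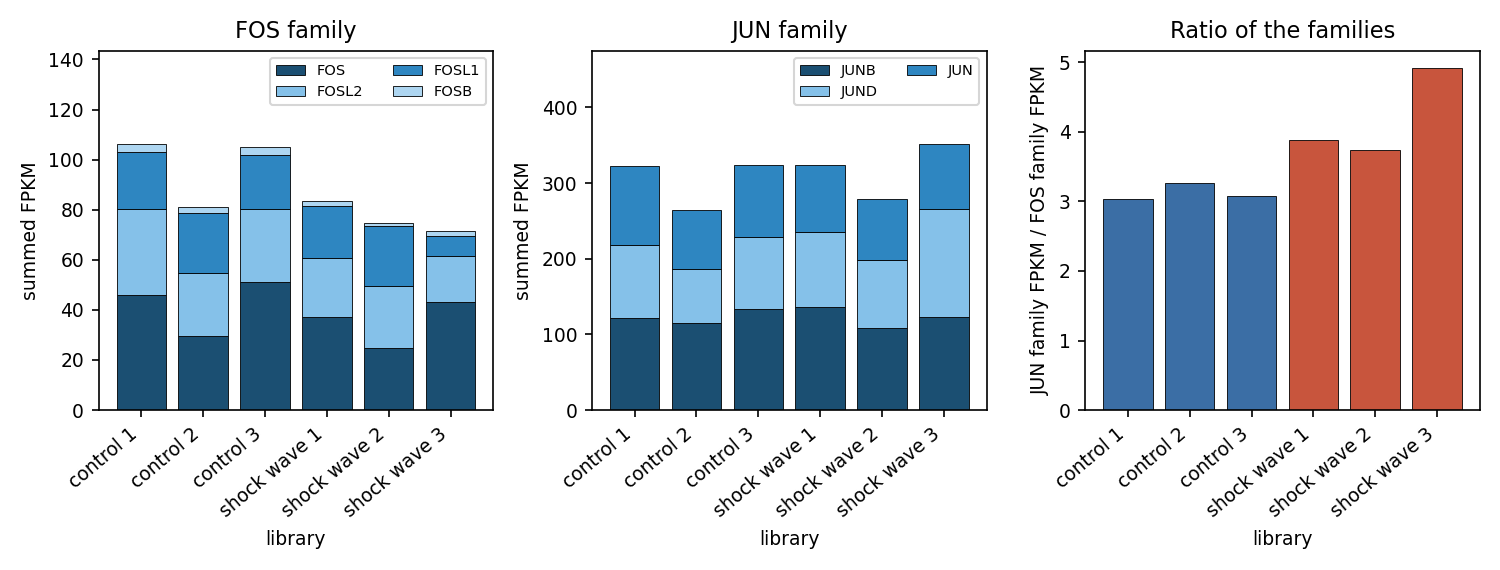
Left and middle, summed FPKM of the FOS and JUN families in each library, stacked by gene. Right, JUN family FPKM divided by FOS family FPKM, with controls in blue and shock wave tumours in red. The 3 control ratios lie between 3.03 and 3.26 and the 3 shock wave ratios between 3.74 and 4.92.

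The order FOS, FOSL2, FOSL1, FOSB held in all 6 libraries, while that of the JUN genes differed between libraries. FOS made up 33.2 to 60.2% of the FOS family, FOSL2 26.1 to 32.9%, FOSL1 11.0 to 31.9% and FOSB 1.97 to 3.20%. The extremes of FOS and FOSL1 lay in the shock wave group, with FOS at 60.2% and FOSL1 at 11.0% in replicate 3 and FOS at 33.2% and FOSL1 at 31.9% in replicate 2. The share of FOSB was 2.97, 3.20 and 3.09% in controls against 2.32, 1.97 and 2.75% in shock wave tumours, without overlap. In recovered reads it was 2.57, 2.66 and 3.15% against 2.29, 1.83 and 2.84%, and the groups overlapped. In the JUN family the share of JUN was 32.3, 29.8 and 29.3% against 27.5, 28.9 and 24.3%, also without overlap. The share of JUND was 30.0, 26.6 and 29.5% against 30.2, 32.5 and 40.5%, higher in all 3 shock wave tumours. For JUND, control replicate 1 and shock wave replicate 1 were nearly level. Shares of a family are parts of the same total, so these are not separate results. They stand beside 16.4% of all single genes tested whose groups did not overlap, lower or higher. JUN is the longest of its family, at 3540 bases against 1820 for JUNB and 1863 for JUND. The order of the JUN share over the shock wave tumours was that of their trends on transcript length. With the length trend removed the log2 change of JUN was 0.0030. The part of length in these shares was not tested.

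EGR1 encodes a zinc finger factor that is switched on through serum response factor beside FOS, and lies on chromosome 5 at 138465490 to 138469315 (plus strand). EGR1 was at 40.9, 55.7 and 36.2 FPKM in controls and at 48.5, 28.6 and 8.64 in shock wave tumours. Replicate 3 was the lowest library by a wide margin, replicate 2 lay below all controls, and replicate 1 lay inside their range. The means were 44.2 ± 10.2 (SD, n = 3) and 28.6 ± 19.9 (SD, n = 3), a log2 change of -0.88 (95% interval -2.21 to 0.45, SE 0.56, limma adjusted p = 0.649). Its range over the 6 libraries was 2.55 on the log2 scale, the widest of the 10 genes, and 2.65% of all genes tested had a wider one. Without shock wave replicate 3 the log2 change was -0.22 and without shock wave replicate 1 it was -1.40. With the length trend removed it was -0.79. Shock wave replicate 3 was the lowest library for EGR1 and above control replicate 2 for FOS, which is known to share this route of activation.

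The genes nearest to EGR1 in pattern were TTC3, NUMA1 and HNF4A, by the mean absolute difference of centred log2 levels over the 6 libraries (0.14, 0.18 and 0.19, among 927 genes of at least 10 FPKM and a range of at least 0.5 times that of EGR1). HNF4A, a transcription factor of hepatic and intestinal epithelium, was at 30.8, 46.6 and 27.1 FPKM in controls and at 23.9, 24.6 and 6.97 in shock wave tumours. TTC3 and NUMA1, which encodes a protein of the mitotic spindle poles, were also lowest in shock wave replicate 3, at 2.96 and 31.8 FPKM. The genes nearest to FOS were MED15, a subunit of Mediator, WBP1 and P4HA2, a collagen prolyl hydroxylase, at 0.105, 0.106 and 0.123 among 4302 genes. MED15 was at 54.1, 33.5 and 52.7 FPKM in controls and at 40.3, 30.8 and 40.6 in shock wave tumours, with replicate 2 lowest in both groups as for FOS. By the same measure FOSB differed from FOS by 0.208, JUN by 0.210 and EGR1 by 0.740.

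ATF3, a factor of the ATF family that is induced by stress and often represses its targets, lies on chromosome 1 at 212608628 to 212620777 (plus strand). ATF3 was at 10.9, 10.6 and 17.9 FPKM in controls and at 8.69, 12.3 and 16.2 in shock wave tumours. Replicate 3 was the highest library of each group and the groups overlapped. The log2 change was -0.08 (95% interval -0.75 to 0.59, limma adjusted p = 0.928), but 0.15 when control replicate 3 was left out and 0.14 when shock wave replicate 1 was. With the length trend removed it was -0.12. In control replicate 1 the retained-intron transcript ATF3-208 (ENST00000465155) held 36.7% of the gene, at 4.01 FPKM and 340 reads. In the other 5 libraries ATF3-208 held 3.89 to 9.40%. The coding transcript ATF3-202 (ENST00000341491) was at 5.81, 9.65 and 15.6 FPKM in controls and at 7.62, 11.5 and 15.3 in shock wave tumours.

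IER2, an immediate early nuclear protein linked to cell motility, lies on chromosome 19 at 13150415 to 13154908 (plus strand). IER2 was at 50.4, 55.4 and 50.5 FPKM in controls and at 64.9, 49.9 and 46.2 in shock wave tumours. Shock wave replicate 1 was the highest library and replicate 3 the lowest, on either side of the controls. The log2 change was 0.03 (95% interval -0.34 to 0.40, limma adjusted p = 0.953), and it was -0.03 with quantile normalization and -0.09 with each library scaled to the same sum. With the length trend removed it was 0.10. Nearly all of IER2 lay in IER2-203 (92.2 to 99.9%). IER2-201 reached 4.11 FPKM in control replicate 2 and at most 0.165 elsewhere.

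**Figure D4:**
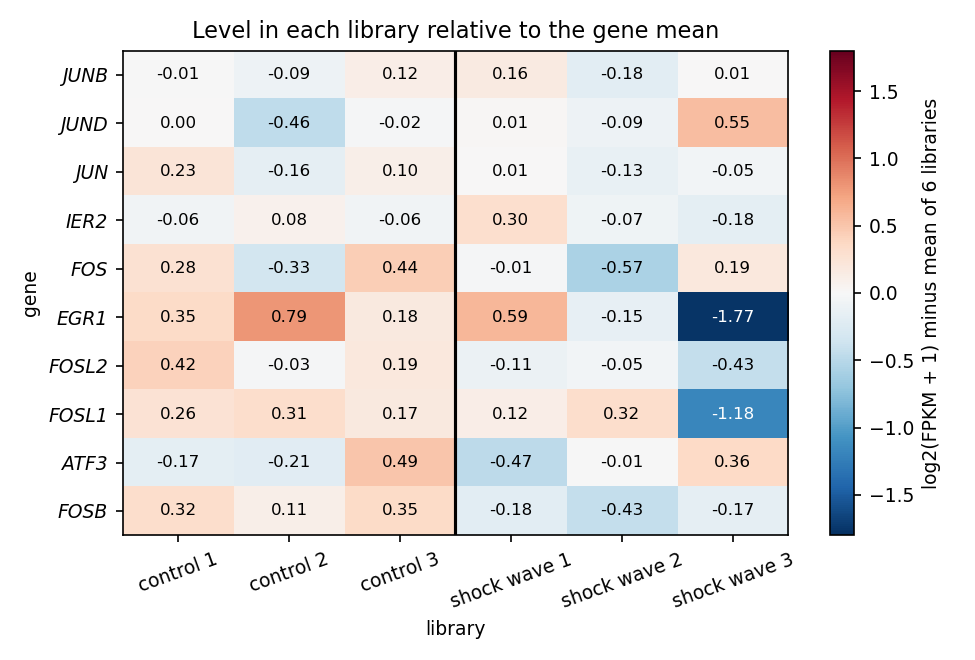
Level of each gene in each library as log2(FPKM + 1) minus the mean of that gene over the 6 libraries, with red above and blue below the mean and the value printed in each cell. The lowest cells are EGR1 at -1.77 and FOSL1 at -1.18, both in shock wave replicate 3.

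In order of mean level the genes ran JUNB, JUND, JUN, IER2, FOS, EGR1, FOSL2, FOSL1, ATF3 and FOSB. The ranges over the 6 libraries were separate between JUN and IER2 and between ATF3 and FOSB, and each other pair of neighbours overlapped. FOS was above EGR1 in 3 of the 6 libraries. Shock wave replicate 3 was the lowest library for 4 of the 10 genes and the highest for 1, and the centred log2 levels of the 10 genes in it ranged over 2.32. In control replicate 3 they ranged over 0.55.

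**Figure D5:**
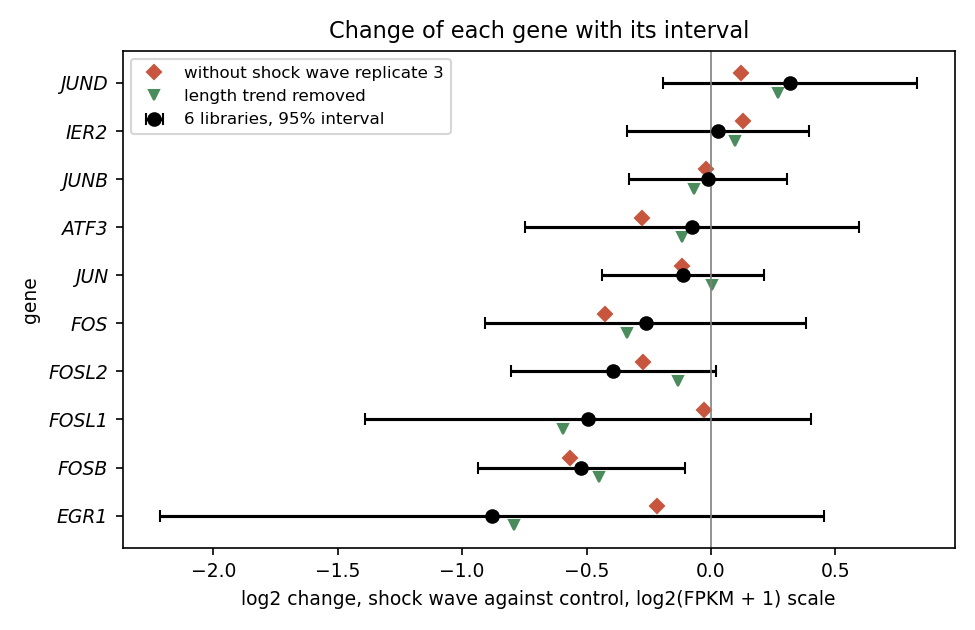
Log2 change of each gene between shock wave and control tumours on the log2(FPKM + 1) scale. Black points and bars are the limma estimate from 6 libraries with its 95% interval, red diamonds leave out shock wave replicate 3 and green triangles have the length trend removed. The interval of FOSB alone does not include 0, before adjustment, and EGR1 and FOSL1 move most without shock wave replicate 3.

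Other bZIP factors that pair or compete with AP-1 were read next. Of 23 listed, 20 were tested, 12 had a log2 change below 0 and 0 passed, with a median of -0.10. This list and those below stand beside 51.6% below 0 and a median of -0.01 over all genes tested. CREB1, ATF2, MAFF and DUSP1 are shared between lists, so the counts of the lists are not fully separate. CREB1, which binds the cyclic AMP response element and is also counted among the upstream factors, was at 8.42, 4.65 and 5.71 FPKM in controls and at 3.10, 4.17 and 2.29 in shock wave tumours (limma adjusted p = 0.648), without overlap. ATF7, a relative of ATF2 that can pair with JUN, was at 16.1, 16.2 and 15.4 FPKM against 13.9, 12.2 and 9.11, also without overlap. Non-overlapping groups were found for 4 genes lower and 0 higher of the 20, beside 8.69 and 7.75% of all genes. CEBPB, a factor of inflammation and differentiation, was at 98.1 ± 11.1 and 114.6 ± 18.3 FPKM (SD, n = 3 each).

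Of 42 other immediate early genes, 37 were tested, 25 had a log2 change below 0 and 0 passed, with a median of -0.11. KLF10, a zinc finger factor, was at 32.8, 38.0 and 34.2 FPKM in controls and at 30.3, 30.5 and 18.1 in shock wave tumours. MCL1, a short-lived inhibitor of apoptosis, was at 152, 162 and 159.6 FPKM against 127, 144.6 and 96.9. Both were lower without overlap, with a limma adjusted p of 0.648. GADD45A, a stress-induced growth arrest gene, was at 19.4, 22.6 and 18.8 FPKM against 23.3, 28.7 and 28.1, higher in all 3 shock wave tumours (limma adjusted p = 0.648). Non-overlapping groups were found for 3 genes lower and 1 higher of 37, beside 8.69 and 7.75% of all genes.

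Of 34 kinases and factors upstream of the immediate early genes, 33 were tested, 24 had a log2 change below 0 and 0 passed, with a median of -0.12. In 6 of the 33 the shock wave tumours lay below all controls and in 1 above, beside 8.69 and 7.75% of all genes. MRTFB, listed under its older symbol MKL2, encodes a coactivator of serum response factor and was at 5.60, 4.86 and 8.98 FPKM in controls and at 2.26, 4.04 and 0.232 in shock wave tumours. MAP3K7, the kinase TAK1 upstream of JNK and p38, was at 14.4, 12.6 and 13.7 FPKM against 11.2, 7.27 and 5.12. MAP3K5, the kinase ASK1 of oxidative stress, was at 1.03, 7.19 and 7.88 FPKM against 11.1, 10.3 and 8.41, higher in all 3. The limma adjusted p was 0.648 for each of these 3 genes. Shock wave replicate 3 was the lowest library for MRTFB and MAP3K7, as for EGR1, and the part of transcript length in this was not tested.

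Of 44 genes described as AP-1 targets, 33 were tested, 19 had a log2 change below 0 and 0 passed, with a median of -0.03. TIMP1, an inhibitor of matrix metalloproteinases, was at 149, 150.4 and 153 FPKM in controls and at 179, 161 and 232 in shock wave tumours, higher in all 3. MMP7, the metalloproteinase of colorectal tumour epithelium, was at 316, 189 and 390.2 FPKM against 398, 485 and 376. HBEGF, a ligand of the EGF receptor, was at 9.99, 13.6 and 11.2 FPKM against 7.60, 9.94 and 7.12, lower in all 3. The smallest unadjusted limma p of the list were those of MT2A (0.0323) and FLNA (0.0364). MT2A was at 29.8, 32.6 and 38.4 FPKM against 58.5, 37.1 and 53.8, with overlap. FLNA was at 112, 129 and 121 FPKM against 71.9, 105 and 41.1, lower in all 3 and lowest in shock wave replicate 3. The part of transcript length in the values of FLNA was not tested. Each of these genes had a limma adjusted p of 0.648. Without overlap, 4 of the 33 were higher and 2 lower, beside 7.75 and 8.69% of all genes.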

How the data were processed

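RNA sequencing was done on 6 HT-29 xenograft samples, 3 untreated and 3 given shock waves. Trizol extraction and a SMARTER library kit are named per the labels. The authors deposited 1 table of expression values for 131516 transcripts and did not name its unit there. The deposited values were taken as FPKM because value times length (GENCODE release 29, known for 116423 of 116485 annotated transcripts) gave whole reads, within 0.05 of a whole number for 99.6 to 99.7% of values worth 0.5 to 100 reads. The submitters' processing notes name hg38. The sources used here name no aligner, quantification program or strand, and do not say whether host reads were removed. The whole numbers show counts without fractions, but not whether a read was counted for 1 transcript or for several. The FPKM of a gene thus depends on which transcripts its reads were given to and on their lengths. The 15031 assembled transcripts without a symbol were not used.

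FPKM were summed per symbol (41 symbols join several gene identifiers). For genes reaching 1 FPKM in 3 samples, log2(FPKM + 1) was compared in limma 3.58.1 (R 4.3.3; mean-variance trend, no covariate), and p was adjusted by Benjamini-Hochberg over all genes with a threshold of 0.05. This scale understates changes of low genes. Transcripts were compared likewise. The procedure was also run on simulated data, drawn as independent normal values for each gene without a trend on length. The outcome of that run is not given here. Groups came from the treatment labels, and no 2 samples were identical. Alternatives covered scaling, filters, the pseudocount, a replicate block, the length trend, limma voom and each sample left out. Named were the 10 genes, their transcripts at 1 FPKM in any library, up to 3 genes of smallest p per direction in each list, of which the text gives some, and the 3 nearest in pattern to FOS and to the gene of widest range. The members and lists were chosen with earlier results of these data known.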

Additional observations from a re-analysis of the deposited data

How the results depend on the processing

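Of 159 values of the 10 genes under the alternatives, 0 passed the threshold (limma adjusted p 0.346 to 0.997), 150 kept their direction and 9 reversed. Reversed were JUN with the length trend removed (0.0030), JUNB with upper-quartile scaling (0.041) and IER2 with quantile normalization (-0.033) and with each library scaled to the same sum (-0.086). Leaving out each replicate gave log2 changes of -0.093 to 0.077 for JUNB, -0.49 to -0.04 for FOS, -0.22 to -0.03 for JUN, 0.12 to 0.44 for JUND, -0.28 to 0.15 for ATF3 and -0.11 to 0.13 for IER2, and a median of the 10 genes of -0.34 (without control replicate 2) to -0.084. FOSB could not be tested with a filter of 5 FPKM. The share of FOSL1-201 was 5.36 percentage points higher in shock wave tumours, and with a replicate left out the difference ran from -3.82 (without control replicate 1) to 16.3. The count of genes below 0 was 6 to 9 of 10. The count lower without overlap was 2 to 4 with a replicate left out, beside 11.0 to 19.3% of all genes. It was 4 without control replicate 2 or shock wave replicate 1 (13.9 and 15.6% of all genes). Without shock wave replicate 2 it was 3 (19.3% of all genes). These counts and the family ratio were chosen after seeing the data. In recovered reads, where length enters, the mean shares were 24.2% for FOS, 11.0% for FOSL1, 62.2% for FOSL2, 2.56% for FOSB, 43.6% for JUN, 31.1% for JUNB and 25.3% for JUND.

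Over all genes limma called 0 higher and 0 lower (932 at an unadjusted p under 0.05). Limma voom on recovered reads called 0 higher and 2 lower, PDXK and FAM168B. With a replicate left out there were 0 to 1 higher and 0 to 4 lower. Without shock wave replicate 2 these were AC068580.4, higher, and MBNL3, NOL4L, PDXK and SEC16A, lower, and without shock wave replicate 3 GTF2F2, lower. All these were named after their values were seen. Over all transcripts limma called 22 higher and 36 lower. There were 1 and 4 without a filter, 6 and 12 with a filter of 5 FPKM, 14 and 18 with a pseudocount of 0.1, 0 and 0 with limma voom, and 0 to 8 and 1 to 23 with a replicate left out. With the replicate number as a block, 0 genes and 0 transcripts passed, higher or lower. Over all genes tested, deviations of same-numbered samples had correlations of -0.01, -0.01 and 0.03, beside -0.04 to 0.04 for other numbers. Such values over all genes cannot tell whether the numbers pair the samples, since single genes could still follow the number. The cause of these shifts was not tested. A quasi-likelihood count model on the recovered reads, also planned, is not reported here. With 3 samples a group the 95% intervals are wide, from -0.33 to 0.31 for JUNB and from -2.21 to 0.45 for EGR1.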
